A study of Mus musculus with 6 samples.

Results

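Chemokine ligands other than Cxcl12 were examined in MS5 cells, a mouse bone marrow stromal line used as a feeder layer for haematopoietic cells, that had been cultured with or without an inhibitor of MEK. The genes were a fixed list of chemokine ligands of the CC, CXC, CX3C and XC families, each with a probe set that names that gene alone. Cxcl12 and Cxcl17 were not on it and are given with the rest of the pathway. The list held 34 genes with 39 probe sets, out of 19938 genes and 28853 probe sets on the arrays. The data are 6 arrays of whole-cell RNA from 3 independent experiments, each with 1 culture given 1 µM PD184352 (MEKi), an inhibitor of the kinases that activate ERK, and 1 culture given the diluent, DMSO, for 7 days. All cultures were the same unmodified line grown alone in medium with serum, so the values speak of 1 cell line and of no co-cultured leukaemic cell. Values are log2 intensities normalized by the robust multichip algorithm (RMA), in which a difference of 1 is a 2-fold change.

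Chemokines are small secreted proteins that bind G protein-coupled receptors and steer the migration and positioning of leukocytes. In the bone marrow, stromal cells are a main source of them: Cxcl12 keeps stem and progenitor cells in place, Ccl2 and Ccl7 bring monocytes out into the blood through Ccr2, and the ELR-type CXC ligands act on neutrophils through Cxcr2. Many inflammatory ligands are transcribed through NF-kB sites close to the start of the gene, often together with AP-1 or C/EBP sites, and ERK signalling feeds into AP-1 through the induction of Fos and Fosl1 and into ETS-family factors.

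Ccl2, Ccl7, Ccl9, Cx3cl1 and Cxcl14 read lower with MEKi in each of the 3 experiments, as did 7.98% of all probe sets, while 24 of the 34 ligands lay within 0.15 of 0 on the log2 scale. Ccl9, Ccl2 and Cx3cl1 had the most negative log2 fold changes of the 34 ligands, with −0.58, −0.53 and −0.51, followed by Ccl17 with −0.36 and Ccl7 with −0.26. At the other end, Ccl25, a thymic and intestinal ligand for T cell precursors, had 0.29. With limma and Benjamini-Hochberg adjustment over all probe sets, however, 0 of the 34 ligands passed an adjusted p of 0.05, where 0.159% of all probe sets passed. At an unadjusted p of at most 0.05, 5 ligands were lower (Ccl2, Ccl7, Ccl9, Ccl17 and Cx3cl1) and 3 were higher (Ccl12, Ccl25 and Ccl26), against 2.31% of all probe sets lower and 7.58% higher. These counts moved with the experiments used. Leaving out experiment 1 gave 4 lower and 0 higher, against 1.39% and 6.5% of all probe sets. Leaving out experiment 2 gave 6 and 1, against 4.77% and 5.85%. Leaving out experiment 3 gave 4 and 3, against 1.93% and 5.03%. Adding the study's requirement of a 1.5-fold change left 0 ligands, against 0.537% of all probe sets. Without experiment 3 it left 2, Ccl9 and Cx3cl1, and without experiment 2 it left 1, Cx3cl1. The shares of all probe sets left by the fold requirement without an experiment were not counted. A further quantile normalization, which moved the median of all probe sets from 0.04 to 0.00, put 4.6% of all probe sets lower and 5.08% higher at the unadjusted p, and 5 and 2 ligands. An intensity trend with a robust prior in the same limma fit raised the calls over all probe sets from 46 to 115 of 28853 and brought 2 ligands past the adjusted threshold, Ccl2 with an adjusted p of 0.0151 and Ccl9 with 0.0282.

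**Figure D1:**
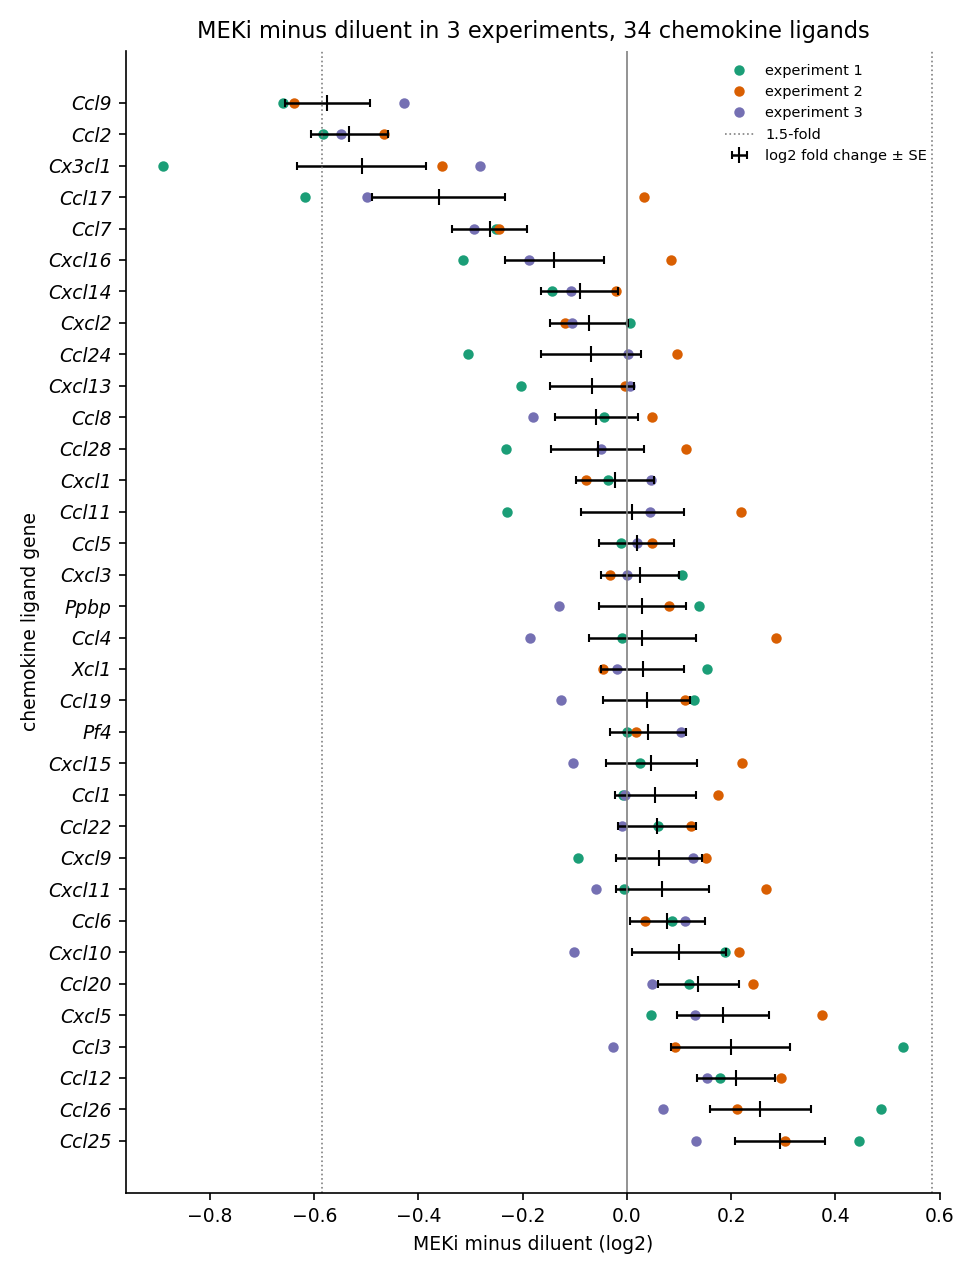
Each row is a chemokine ligand; coloured points give MEKi minus diluent on the log2 scale in each of the 3 experiments, black bars the log2 fold change ± its standard error from limma, and dotted lines a 1.5-fold change. The points of Ccl9, Ccl2, Cx3cl1 and Ccl7 all lie left of 0, the other points of the list mostly straddle 0, and 3 ligands (Ccl9, Cx3cl1 and Ccl17) reach 1.5-fold in at least 1 experiment.

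Among the 4 monocyte chemoattractants, Ccl2 and Ccl7 stood lower with MEKi and Ccl12 higher. Ccl2, the main Ccr2 ligand, read 10.63, 10.53 and 9.39 with diluent and 10.04, 10.07 and 8.84 with MEKi in experiments 1, 2 and 3. Both arrays of experiment 3 were low, and the groups overlapped because the diluent array of that experiment lay under the MEKi arrays of the other experiments; the group values were 10.18 ± 0.69 with diluent and 9.65 ± 0.70 with MEKi (SD, n = 3 each). Within experiments, MEKi minus diluent was −0.58, −0.47 and −0.55, a log2 fold change of −0.53 (SE 0.07) that corresponds to 0.691 of the diluent level (95% interval 0.613 to 0.78), with a limma p of 0.000156 and an adjusted p of 0.0783.

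Ccl7, a second Ccr2 ligand encoded by the gene next to Ccl2, read 11.21, 11.32 and 10.27 with diluent and 10.96, 11.07 and 9.98 with MEKi. Its pattern over the experiments was that of Ccl2, with low arrays in experiment 3 and an overlap between the groups, but its differences of −0.25, −0.24 and −0.29 were smaller. The log2 fold change was −0.26 (SE 0.07, adjusted p = 0.316 in limma). Ccl2 differed more than Ccl7 in each experiment, by −0.33, −0.22 and −0.26 on the log2 scale (mean −0.27 ± 0.06, SD); 3 pairs cannot give an exact two-sided sign-flip p under 0.25, which was the value here.

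The other 4 genes of the run Ccl2, Ccl7, Ccl11, Ccl12, Ccl8, Ccl1, which follow each other in the GRCm38.p6 gene order, had values closer to 0 than Ccl2. Ccl12, also a Ccr2 ligand, read 4.50, 4.58 and 4.52 with diluent and 4.68, 4.88 and 4.67 with MEKi. Its groups did not overlap, yet its difference was small, 0.21 (SE 0.08, adjusted p = 0.424 in limma). Ccl8, grouped with them by homology, had a log2 fold change of −0.06 with a 95% interval of −0.25 to 0.13, the eotaxin Ccl11 had 0.01 (−0.22 to 0.24), and Ccl1, a Ccr8 ligand, had 0.05 (−0.13 to 0.24). The probe sets of Ccl1, Ccl8, Ccl11 and Ccl12 all lay below the median of all probe set means, 6.32.

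Ccl9, a Ccr1 ligand of myeloid cells and osteoclast precursors, read 9.30, 9.08 and 8.09 with diluent and 8.64, 8.45 and 7.66 with MEKi. Experiment 3 again gave the lowest array of each group, and the groups overlapped through its diluent array, with 8.82 ± 0.65 with diluent and 8.25 ± 0.52 with MEKi (SD, n = 3 each). MEKi minus diluent was −0.66, −0.64 and −0.43. The log2 fold change of −0.58 (SE 0.08) was the most negative of the 34 ligands and is 0.671 of the diluent level (95% interval 0.588 to 0.767). Its limma p was 0.000181 and its adjusted p 0.084. The 250 bases before its start are shown because its fold change is the most negative and because AP-1 and NF-kB matches stand close together there. Whether these matches bear on its values was not tested. The sequence is from RefSeq, GRCm38.p6 chr11:83578637-83578886, minus strand, with the matches in capitals, TGAATCA to AP-1 and GGAAAGCCCC to the NF-kB consensus on the opposite strand, 53 to 47 and 35 to 26 bases before the start.
Ccl9 promoter: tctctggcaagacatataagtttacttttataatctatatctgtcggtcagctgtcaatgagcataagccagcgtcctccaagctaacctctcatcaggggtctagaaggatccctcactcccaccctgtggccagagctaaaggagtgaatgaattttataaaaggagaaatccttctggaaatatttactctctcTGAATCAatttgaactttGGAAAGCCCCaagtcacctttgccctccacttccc

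Ccl6, the gene beside Ccl9 and likewise a Ccr1 ligand, was slightly higher in all 3 experiments. It read 6.31, 6.18 and 5.89 with diluent and 6.40, 6.21 and 6.0 with MEKi, a log2 fold change of 0.08 (95% interval −0.09 to 0.25). Ccl9 minus Ccl6 was −0.75, −0.67 and −0.54 in the 3 experiments, a difference of responses with an exact two-sided p of 0.25, the smallest that 3 pairs allow. The other genes of that run were Ccl5, Ccl3 and Ccl4, inflammatory ligands made by activated leukocytes. Ccl5 had 0.02 (−0.15 to 0.19), Ccl4 had 0.03 (−0.21 to 0.27) and Ccl3 had 0.20 (−0.07 to 0.47), where the value of Ccl3 came mainly from a difference of 0.53 in experiment 1.

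The membrane-anchored ligands act both as adhesion molecules and, once shed by ADAM proteases, as soluble attractants. Cx3cl1, or fractalkine, the ligand of Cx3cr1 on monocytes, read 9.61, 8.78 and 8.73 with diluent and 8.72, 8.43 and 8.45 with MEKi. Every MEKi array lay below every diluent array, but only just, with the highest MEKi array at 8.725 and the lowest diluent array at 8.732. The diluent array of experiment 1 was well above the other 5. MEKi minus diluent was −0.89, −0.35 and −0.28, a log2 fold change of −0.51 (SE 0.12, adjusted p = 0.255 in limma); without experiment 1 it was −0.32. Cxcl16, the other ligand of this kind, attracts Cxcr6-bearing T cells and had −0.14 (95% interval −0.36 to 0.08), with differences of −0.31, 0.08 and −0.19 that did not keep 1 sign.

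Cx3cl1 lies between Ccl22 and Ccl17 in the gene order, and both of these attract Ccr4-bearing T cells. Ccl17 read 7.33, 6.84 and 6.98 with diluent and 6.71, 6.87 and 6.48 with MEKi. It was lower with MEKi in experiments 1 and 3 and level in experiment 2, with differences of −0.62, 0.03 and −0.50, and the groups overlapped. Its log2 fold change was −0.36 (SE 0.13, adjusted p = 0.418 in limma), and leaving out experiment 1 or 2 moved it to −0.23 or −0.56. Ccl22 had 0.06 (95% interval −0.12 to 0.23). Cx3cl1 minus Ccl22 was −0.95, −0.48 and −0.27 in the 3 experiments (exact two-sided p = 0.25, the smallest possible).

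The 250 bases before the starts of Cx3cl1 and Ccl17 are given since these neighbours followed Ccl9 and Ccl2 in the order of fold changes; they hold no match to any of the 4 motifs searched, so no base is in capitals. They are RefSeq sequences of GRCm38.p6, chr8:94771930-94772179 for Cx3cl1 and chr8:94810203-94810452 for Ccl17, both on the plus strand.
Cx3cl1 promoter: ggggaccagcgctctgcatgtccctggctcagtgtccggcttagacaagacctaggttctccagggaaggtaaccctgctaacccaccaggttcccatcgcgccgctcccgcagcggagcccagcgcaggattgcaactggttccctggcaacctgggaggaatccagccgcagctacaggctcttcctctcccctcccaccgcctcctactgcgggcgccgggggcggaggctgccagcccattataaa
Ccl17 promoter: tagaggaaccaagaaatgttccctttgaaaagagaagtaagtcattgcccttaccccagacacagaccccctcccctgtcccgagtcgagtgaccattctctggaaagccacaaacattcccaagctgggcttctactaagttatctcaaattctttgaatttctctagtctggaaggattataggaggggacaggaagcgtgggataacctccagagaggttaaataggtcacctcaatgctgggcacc

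Of the ligands with higher values, Ccl25 was seen by a pair of probe sets. It read 7.20, 7.53 and 7.56 with diluent and 7.65, 7.83 and 7.69 with MEKi on the brighter probe set, without overlap, although the highest diluent and the lowest MEKi array were only 0.09 apart. The log2 fold change was 0.29 (SE 0.09, adjusted p = 0.345 in limma) there and 0.39 (SE 0.08, adjusted p = 0.186) on the second probe set. Ccl26, an eotaxin, read 4.65, 4.86 and 4.92 with diluent and 5.14, 5.07 and 4.99 with MEKi; the groups did not overlap, and its differences lay between 0.07 in experiment 3 and 0.49 in experiment 1. Its log2 fold change was 0.26 (SE 0.10, adjusted p = 0.452 in limma), and 0.14 without experiment 1. Ccl24, the third eotaxin and the neighbour of Ccl26, had −0.07 (95% interval −0.30 to 0.16).

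**Figure D2:**
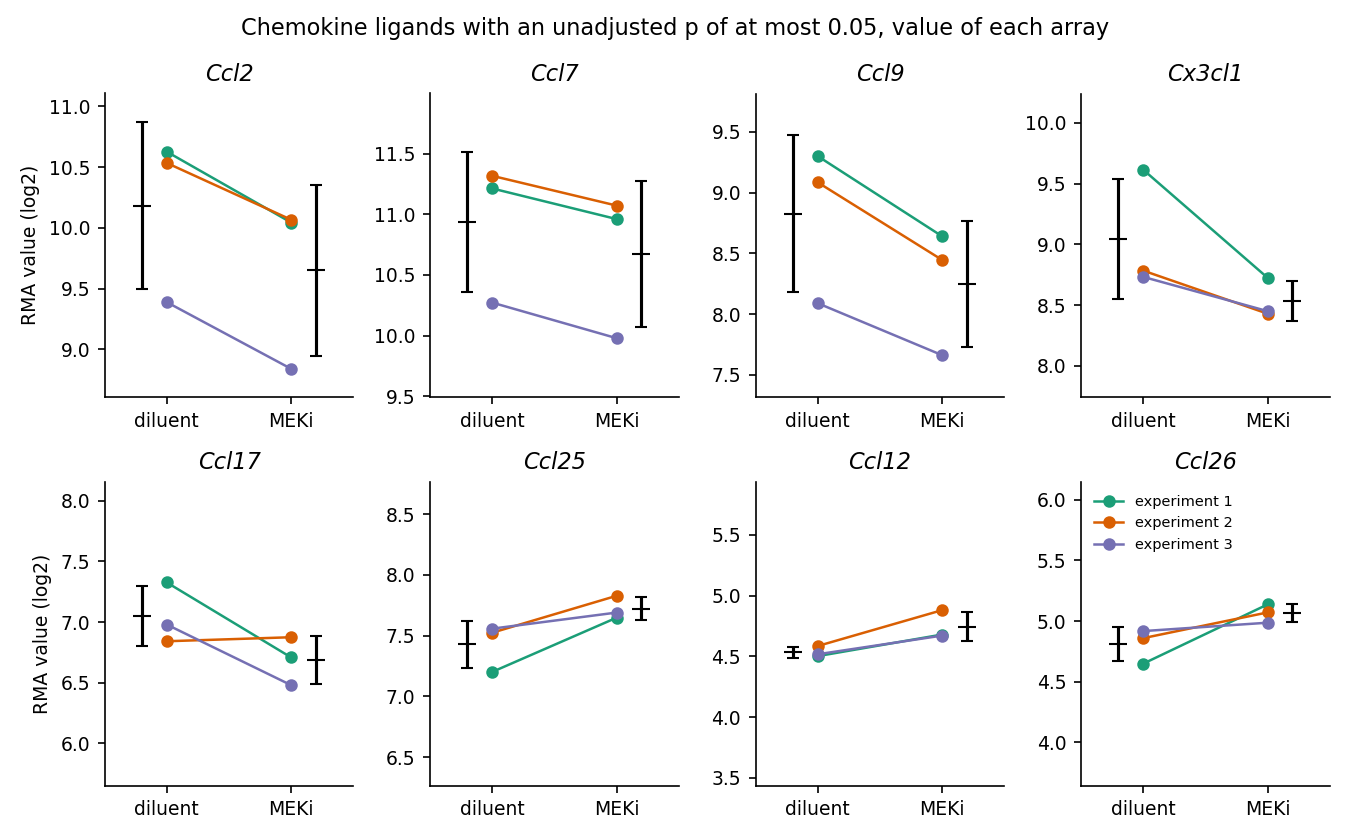
RMA values on the log2 scale of the 8 ligands with an unadjusted limma p of at most 0.05; lines join the diluent and MEKi arrays of 1 experiment, black marks give the mean ± SD of 3 arrays, and all panels span the same height. The lines of Ccl2, Ccl7 and Ccl9 run nearly parallel downwards with experiment 3 about 1 unit below the others, Cx3cl1 drops most in experiment 1, and Ccl25, Ccl12 and Ccl26 slope upwards.

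The 6 ELR-type CXC ligands, the neutrophil attractants, showed no shared direction, with a median log2 fold change of 0.03 and a range of −0.07 to 0.18. Cxcl1, the only one at or above the median of all probe sets, read 6.90, 6.82 and 6.65 with diluent and 6.87, 6.74 and 6.69 with MEKi. Its log2 fold change of −0.02 had a 95% interval of −0.20 to 0.15, that is 0.872 to 1.11 of the diluent level. Cxcl2 had −0.07 (−0.25 to 0.10), Cxcl3 0.02 (−0.15 to 0.20), Ppbp, a platelet chemokine, 0.03 (−0.17 to 0.23), and Cxcl15, a lung chemokine, 0.05 (−0.16 to 0.25). Cxcl5 read 5.89, 6.51 and 5.87 with diluent and 5.93, 6.89 and 6.0 with MEKi, high in both arrays of experiment 2, and had 0.18 (SE 0.09, adjusted p = 0.559 in limma).

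The promoters of Cxcl1, Cxcl2 and Cxcl3 are shown because these genes of 1 run in the gene order carry the same NF-kB match close to the start; whether it bears on their values was not tested. The 120 bases before each start are from RefSeq, GRCm38.p6, plus strand, at chr5:90891125-90891244, chr5:90903779-90903898 and chr5:90785981-90786100. Capitals mark a pair of overlapping NF-kB matches, GGGAATTTCC and, on the opposite strand, GGAATTTCCC, and, in Cxcl1, TTCCGG, the ETS motif on the opposite strand.
Cxcl1 promoter: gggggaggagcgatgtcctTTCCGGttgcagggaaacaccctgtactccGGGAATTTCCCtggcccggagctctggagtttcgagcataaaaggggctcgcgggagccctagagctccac
Cxcl2 promoter: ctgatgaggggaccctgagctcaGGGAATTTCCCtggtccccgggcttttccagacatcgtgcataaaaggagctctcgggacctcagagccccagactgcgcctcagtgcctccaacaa
Cxcl3 promoter: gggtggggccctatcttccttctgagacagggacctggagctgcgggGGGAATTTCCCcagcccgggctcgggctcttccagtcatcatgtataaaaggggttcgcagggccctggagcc

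The interferon-induced Cxcr3 ligands Cxcl9, Cxcl10 and Cxcl11, which attract activated T cells, and the platelet chemokine Pf4 had log2 fold changes of 0.04 to 0.10, with 95% intervals that all held 0. Cxcl10 read 4.77, 4.77 and 5.12 with diluent and 4.96, 4.98 and 5.02 with MEKi (0.10, 95% interval −0.11 to 0.31), and all 6 arrays lay below the median of all probe sets. Of the 24 ligands whose promoters were searched, it is the only one with matches to AP-1, NF-kB and the interferon response motif together. Its promoter is printed from RefSeq, GRCm38.p6 chr5:92348890-92349139, minus strand, with capitals for GAAAGTGAAA (interferon response), GGGAAATTCC and GGGACTTCCC (NF-kB) and TGAGTCA (AP-1).
Cxcl10 promoter: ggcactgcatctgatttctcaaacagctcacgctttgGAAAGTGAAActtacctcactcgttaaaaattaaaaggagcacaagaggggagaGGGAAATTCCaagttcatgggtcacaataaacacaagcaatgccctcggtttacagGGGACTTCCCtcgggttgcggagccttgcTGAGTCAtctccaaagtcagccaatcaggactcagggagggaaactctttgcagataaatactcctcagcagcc

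The homeostatic ligands that place lymphocytes and dendritic cells had values near 0 apart from Ccl17 and Ccl25. Ccl19, a Ccr7 ligand, had 0.04 (95% interval −0.16 to 0.24) and 0.07 to 0.11 on 4 further probe sets, of which a pair holds identical values. Ccl20, a Ccr6 ligand, had 0.14 (−0.05 to 0.32) with arrays that did not overlap, the mucosal ligand Ccl28 had −0.06 (−0.27 to 0.15) and the lymphotactin Xcl1 had 0.03 (−0.16 to 0.22). Cxcl13, which draws B cells into follicles, had −0.07 (−0.26 to 0.12). Cxcl14 was lower in all 3 experiments without overlap, but by only −0.09 (−0.27 to 0.08).

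Over the 34 ligands the median log2 fold change was 0.03, beside 0.04 for all probe sets, and 38.2% of the ligands were below 0, beside 36% of all probe sets. Over the 8 ligands at or above the median of all probe set means it was −0.31, beside 0.05 for all probe sets as bright. By experiment the medians were −0.01, 0.09 and −0.02 for the ligands and 0.00, 0.10 and 0.01 for all probe sets. In all 3 experiments, 5 ligands were lower (Ccl2, Ccl7, Ccl9, Cx3cl1 and Cxcl14) where 7.98% of all probe sets were, and 7 were higher (Ccl6, Ccl12, Ccl20, Ccl25, Ccl26, Cxcl5 and Pf4) where 23.8% were. The MEKi and diluent arrays did not overlap for 6 ligands (Ccl12, Ccl20, Ccl25, Ccl26, Cx3cl1 and Cxcl14), where 7.86% of all probe sets did not.

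Only 8 ligands lay at or above the median of all probe set means: Ccl2, Ccl7, Ccl9, Cx3cl1, Ccl17, Ccl19, Ccl25 and Cxcl1. Of these, 6 had an unadjusted p of at most 0.05, 5 lower and 1 higher, where 3.11% of probe sets as bright were lower and 11.2% higher. Of the 26 ligands below that median, 24 did not. Among the 26 ligands that missed the unadjusted threshold, log2 fold changes ran from −0.14 to 0.20, with 24 within 0.15 of 0, and their 95% intervals reached from −0.36 to 0.47. The deposited values carry no detection call, so whether a dim probe set measured its transcript was not tested.

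Ccl2, Ccl7 and Ccl9 also differed between the experiments at the same treatment. In limma's moderated F-test of the experiment term, 4 ligands passed an adjusted p of 0.05, where 7.69% of all probe sets passed: Ccl2 (adjusted p = 0.000641), Ccl7 (0.00123), Ccl9 (0.00245) and Cxcl5 (0.0104). The experiment means of Ccl2 spanned 1.22 on the log2 scale, those of Ccl9 1.09 and those of Ccl7 1.07, each larger than its difference with MEKi. Experiment 3 lay below the mean of experiments 1 and 2 by −1.19 for Ccl2, −0.99 for Ccl7 and −1.10 for Ccl9 with diluent, and by −1.22, −1.04 and −0.88 with MEKi. Without experiment 3, 2 ligands passed, Cxcl5 and Cx3cl1, and Ccl2, Ccl7 and Ccl9 were not among them. Without experiment 2, the 4 were Ccl2, Ccl6, Ccl7 and Ccl9. The shares of all probe sets that passed without an experiment were not counted. What distinguished the culture of experiment 3 was not tested.

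**Figure D3:**
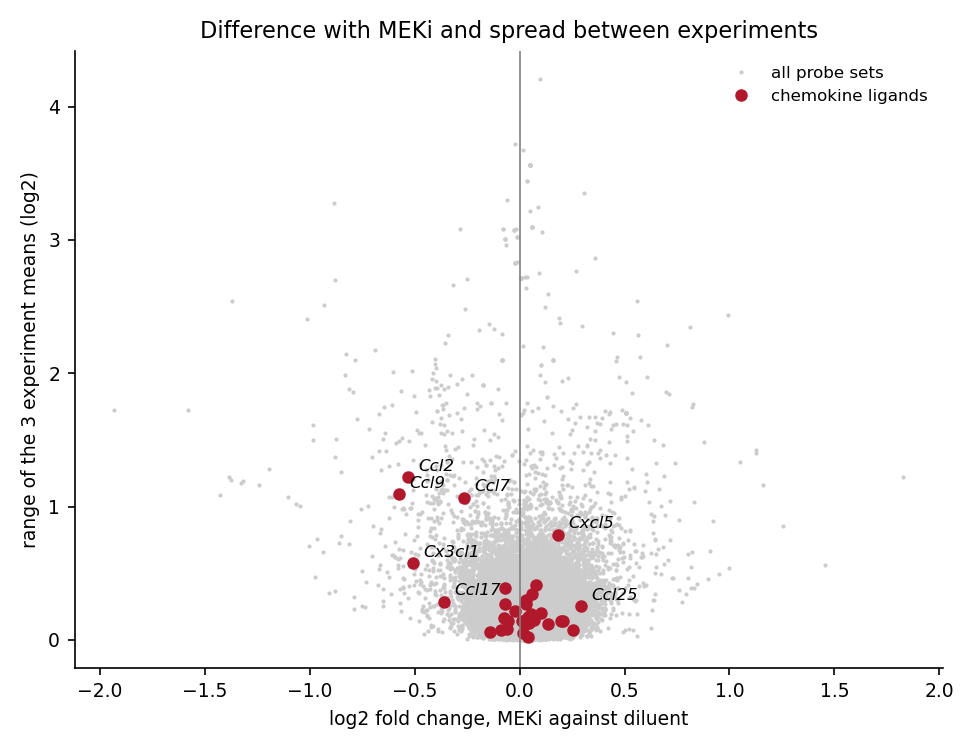
The horizontal axis gives the log2 fold change with MEKi, the vertical axis the range of the 3 experiment means on the log2 scale; grey points are all probe sets and red points the 34 ligands. Ccl2, Ccl9 and Ccl7 lie at a range of about 1 to the left of 0, Cxcl5 at 0.79 to the right, and most other ligands sit near the bottom around 0.

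Promoter sequences were matched for 24 of the 34 ligands, and Ccl25 has a pair of starts. The 250 bases before the start were searched on both strands for the NF-kB consensus, for AP-1 (TGANTCA), for the interferon response motif (GAAA, any 2 bases, GAAA) and for the ETS motif CCGGAA. The NF-kB and ETS motifs can share letters, but no matches of different motifs overlapped in the ligand promoters. The NF-kB consensus was found in 6 ligands (Ccl9, Ccl20, Cxcl1, Cxcl2, Cxcl3 and Cxcl10), beside 3.9% of 32851 promoters, and AP-1 in 3 (Ccl9, Cxcl10 and Ppbp), beside 6.75%. The interferon response motif was found in 3 (Ccl19, Cxcl10 and Cxcl14), beside 2.98%, and the ETS motif in 2 (Ccl28 and Cxcl1), beside 12%. Ccl9 was the only ligand with an unadjusted p of at most 0.05 that held a match in this window, but Ccl2, Ccl7 and Ccl26 could not be searched. No promoter entry was matched for Ccl2, Ccl4, Ccl5, Ccl7, Ccl11, Ccl24, Ccl26, Cxcl5, Cxcl11 and Cxcl16.

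The rest of the chemokine pathway was followed in 9 lists with 95 measured genes, of which 1 passed an adjusted p of 0.05 in limma. This was Fosl1, an AP-1 subunit induced by ERK, which fell in every experiment. It read 9.27, 8.38 and 9.19 with diluent and 8.37, 7.53 and 8.51 with MEKi, a log2 fold change of −0.81 (SE 0.08, adjusted p = 0.0319); it did not pass without experiment 1 or without experiment 2. The 9 AP-1 and C/EBP factors had a median of −0.25, with 4 at an unadjusted p of at most 0.05, all lower: Fosl1, Fos (−0.62), Junb (−0.38) and Cebpb (−0.25). Of all 95 pathway genes, 21 had such a p in limma, in either direction. Of all probe sets, 2.31% were lower and 7.58% higher at that p. Fos differed by −1.33, −0.06 and −0.47 in the 3 experiments, so that experiment 1 carried much of its value. Fosb, with −1.09, 0.09 and −0.32, had −0.44 with an unadjusted p of 0.0594 in limma.

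Among 12 measured NF-kB subunits and inhibitors, 0 passed and the median was 0.03. The feedback inhibitor Tnfaip3 had the most negative value, −0.50 (adjusted p = 0.413 in limma), with differences of −0.89, 0.10 and −0.72 over the 3 experiments. Nfkbiz had −0.22, Bcl3 0.12 and Nfkbie 0.10. Of 10 interferon signalling genes, 0 passed, with Irf1 at −0.34 (adjusted p = 0.358) and Irf7 at −0.21, and Ifngr2 and Ifngr1, the receptor chain genes, at −0.13 and 0.10. Of 8 mRNA decay factors, which set the stability of many chemokine transcripts, 0 passed and all lay within −0.14 and 0.08.

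Of 17 cytokines and receptors that induce chemokines, 0 passed. At an unadjusted limma p of at most 0.05, 2 were lower and 4 higher, beside 2.31% and 7.58% of all probe sets. Tlr2 had 0.38 (adjusted p = 0.215 in limma), Il4ra 0.26, Il1b −0.23 and Il13ra1 −0.27. Among 15 genes that shed, trim or retain chemokines, 0 passed, while 3 were lower and 1 higher at the unadjusted p. The lowest were the matrix metalloproteases Mmp13 (−0.72, adjusted p = 0.195) and Mmp3 (−0.59, adjusted p = 0.132) and the heparan sulphate proteoglycan Sdc4 (−0.50, adjusted p = 0.378). Adam10, which sheds Cx3cl1 and Cxcl16, had 0.21 (adjusted p = 0.438).

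Of 17 receptors that read these ligands, 2 lay at or above the median of all probe sets and 0 passed; the largest values were those of Ccr8 (0.38, adjusted p = 0.362 in limma), Ccr3 (0.18), Ccr4 (0.16) and Cxcr3 (0.15). Ccr2 and Cx3cr1, the receptors of Ccl2, Ccl7 and Cx3cl1, had 0.12 and 0.08. Of 5 atypical receptors, which do not signal through G proteins, 0 passed, with Ackr2 at 0.24, Ackr1 at 0.13, Ccrl2 at −0.10 and Ackr3 at −0.07. Cxcl12 itself read 12.16, 12.12 and 11.79 with diluent and 12.26, 12.50 and 11.99 with MEKi, higher in each experiment by 0.22 on average (SE 0.08, adjusted p = 0.445 in limma), and Cxcl17 had 0.03.

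**Figure D4:**
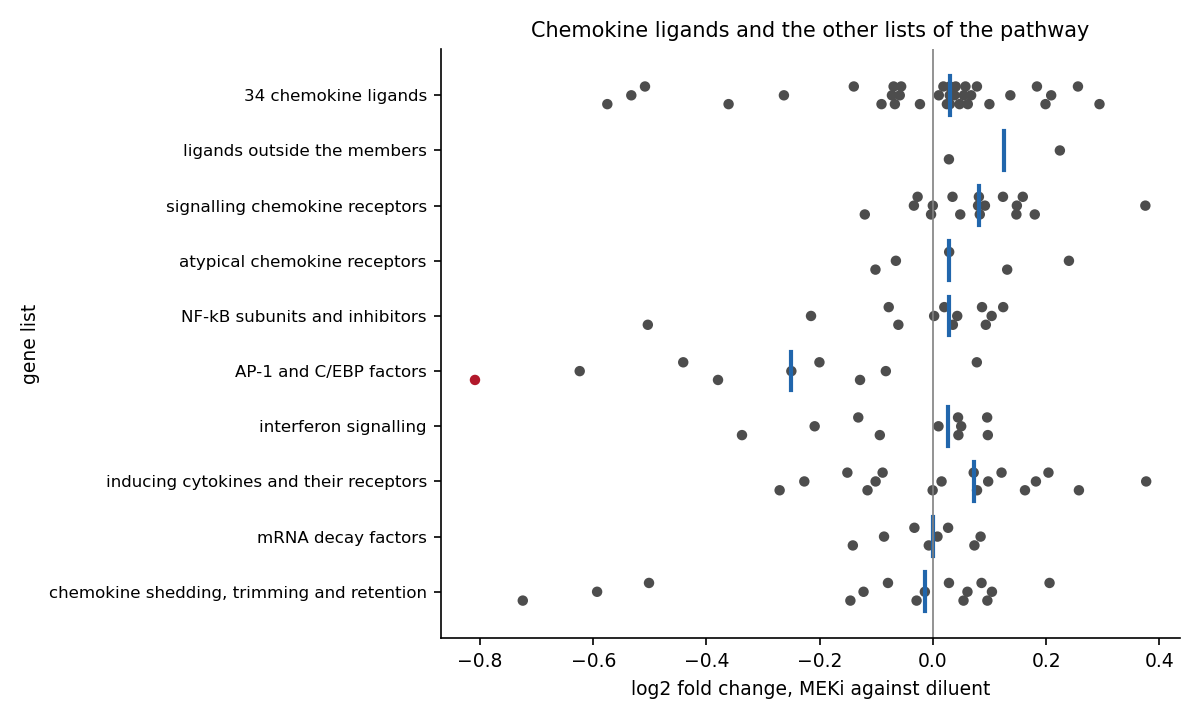
Each point is the log2 fold change with MEKi of 1 gene, by list; blue bars are the list medians and the red point is Fosl1, the only gene past an adjusted p of 0.05. The AP-1 and C/EBP list is shifted to the left with a median of −0.25, while the medians of the other lists lie between −0.01 and 0.13.

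As a check of the treatment, 16 outputs of the ERK pathway were read. At an unadjusted limma p of at most 0.05, 11 were lower, where 2.31% of all probe sets were. Their median was −0.39, and Ccnd1 (−1.32) and Fosl1 passed the adjusted threshold. Of 12 stromal markers, 8 lay at or above the median of all probe sets, with Col1a1, Col1a2, Pdgfra and Pdgfrb between 10.63 and 12.19. None of the 12 passed an adjusted p of 0.05, and at the unadjusted p Vcam1 (−0.57) was lower and Eng (0.22) higher. Ccl2, Ccl7 and Ccl9 are also made by macrophages, so 12 macrophage and leukocyte markers were read beside them. Of these 12 markers, 4 lay at or above the median of all probe set means. Ptprc, Adgre1, Itgam and Csf1r lay below the median of all probe sets on every array (4.12 to 5.80). The mean of the 12 markers was 5.91 to 6.17 with diluent and 5.98 to 6.04 with MEKi. Of these markers 0 passed an adjusted p of 0.05 in limma, and at an unadjusted p of at most 0.05 Cd53 (−0.75) and Cd68 (−0.61) were lower and Lyz2 (0.42) and Cd14 (0.25) higher. Between experiments, 2 of the 12 markers passed an adjusted p of 0.05 in limma's moderated F-test, where 7.69% of all probe sets passed. The part of leukocytes in the values of Ccl2, Ccl7 and Ccl9 was not tested. Of 7 endothelial and 3 platelet markers, 0 passed. In bulk RNA, fewer cells that make a ligand and less of its RNA per cell cannot be told apart.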

How the data were processed

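RNA of MS5 cells from 3 independent experiments, each with a diluent and a MEKi culture, was measured on 6 Affymetrix mouse Gene ST arrays. The authors normalized the intensities with RMA and deposited the result as log2 values for 28853 probe sets. Partek served for their quality controls and statistics. The versions of both and the genome build are not given in the sources used here. The values were used as deposited, unfiltered, and 0 columns were left out. A platform annotation names 1 gene for 21789 probe sets, several for 1621 and none for 5443; a gene is represented by its probe set with the highest mean.

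The comparison of MEKi with diluent used limma 3.58.1 in R 4.3.3 (lmFit, eBayes) with a block for the experiment and a Benjamini-Hochberg adjustment that covered every probe set on the array. The experiment numbers come from the titles and pair the arrays: same-numbered arrays deviated together from the group means (r = 0.81, 0.59 and 0.62 across probe sets), while r was −0.61 to 0.21 for other pairs. Residual degrees of freedom were 2 and the prior added 5.17. The methods' p threshold was read as 0.05, with 0.0005 as an alternative. The number of arrays limits the precision. Tested on simulated data of 28853 probe sets, the MEKi comparison recovered 44 of 67 true changes of 1.5-fold, 64 of 67 of 2-fold and 66 of 66 of 3-fold. Of its 184 calls there, 5.43% were false. The data gave 46 calls, so the adjusted threshold was harder to pass than in the simulation, and recovery can be lower.

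The ligands, gene lists and tests were chosen with earlier results of these data known. Values of every array are given for ligands with an unadjusted p of at most 0.05, a 1.5-fold difference in any experiment or an adjusted p under 0.05 between experiments, and up to 4 genes of each list are named by size of change; other genes were picked after their values were seen. Alternatives were a fit without the block, a random block, quantile normalization, centring on array medians, brighter probe sets only, and an intensity trend with a robust prior. Further ones were each experiment left out, a paired t-test per probe set in place of the methods' analysis of variance, and averaging of a gene's probe sets. Promoters are from RefSeq (GRCm38.p6). Python 3.11.15 with matplotlib 3.10.9 drew the figures.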

Additional observations from a re-analysis of the deposited data

How the results depend on the processing

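With no replicate block, 0 of 28853 probe sets passed an adjusted p of 0.05, so 0 ligands and 0 other pathway genes could pass. At an unadjusted p of at most 0.05, 0 ligands were lower and 3 higher, beside 0.783% and 2.36% of all probe sets. With the experiment as a random block, again 0 of all probe sets passed, hence 0 ligands and 0 pathway genes. There 3 ligands were lower and 3 higher at the unadjusted p, beside 1.77% and 6.28% of all probe sets. The intensity trend with a robust prior called 2 ligands (Ccl2 and Ccl9) and 2 pathway genes (Fosl1 and Mmp3), beside 115 of 28853 probe sets. Every other setting tried left the count of called ligands at 0. In these, the lowest adjusted p of a ligand ran from 0.0581 with quantile normalization to 1 with no block. Median centring and leaving out experiment 2 also called 0 of all probe sets, so their 0 is not particular to the ligands. Quantile normalization called 15 of all probe sets, leaving out experiment 1 called 14 and leaving out experiment 3 called 37. The brighter probe sets alone gave 25 of 14427. At the methods' p and fold, quantile normalization and median centring gave 1 ligand each (Ccl9) in place of 0, and leaving out 1 experiment gave 0 to 2. The shares of all probe sets at that p and fold were not counted for these settings. A paired t-test per probe set, in place of the methods' analysis of variance, gave 0, beside 66 of 28853 probe sets. Its unadjusted p alone was at most 0.05 for 4 ligands. A limma p of at most 0.0005 with the fold also gave 0 ligands, with the share of all probe sets not counted. After Benjamini-Hochberg the paired t-test called 0 of all probe sets, of which 2195 had an unadjusted p of at most 0.05. Of the pathway genes, centring left 0 and leaving out 1 experiment 0 to 1. Between experiments, leaving out 1 gave 2 to 4 ligands. The median over ligands, 0.03, was −0.31 over the 8 brighter ones and within 0.05 of 0 under the other settings. The fold changes of the 8 ligands with an unadjusted p of at most 0.05 kept their sign, but these ligands were picked by p in the same data. Without the block, with the random block, with brighter probe sets only and with the trend, the fold change could not move. The sign was thus only at issue under quantile normalization, median centring and with an experiment left out. Fold changes of the other ligands were not followed. The causes of these shifts were not tested. In simulated data, where more probe sets were called, 44 of 67 changes of 1.5-fold were recovered. Differences of that size or smaller can thus be missed, and 26 ligands lay below the median signal.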
